A study of Mus musculus with 2 samples.

Results

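A set of 10 genes that carry arginine into the cell or turn it into ornithine, proline precursors and polyamines was followed in thioglycollate-elicited peritoneal macrophages. They are Slc7a1 and Slc7a2 (uptake), Arg1 and Arg2 (arginase), Oat (ornithine to the proline route), Odc1 and its regulator Azin1 (ornithine to putrescine), Srm and Sms (spermidine and spermine synthesis) and Sat1 (polyamine acetylation). These 10 genes were taken by name for their roles, with earlier results of these data known, from 15623 genes listed in the tables, and all 10 were listed in both libraries. The cells came from wild type C57BL/6 mice, 6 to 8 weeks old, that received 4% thioglycolate in the peritoneum 4 to 5 days before lavage, and the macrophages were kept by adherence for 4 h and then held in medium with 0.5% FBS. They were left nontreated (NT) or received mouse IL-4 for 6 h, and each of the 2 groups held 1 RNA-seq library. No difference below was therefore checked against the spread between animals or cultures. The labels do not say whether animals were pooled.

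Arginine enters macrophages mainly through cationic amino acid transporters. Arginase splits it into urea and ornithine, and nitric oxide synthase competes with arginase for the same substrate. Ornithine is decarboxylated to putrescine, to which aminopropyl groups are added to make spermidine and then spermine, or it is converted by ornithine aminotransferase towards proline and glutamate. High arginase 1 is a classical mark of alternative (M2) activation by IL-4 through Stat6.

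The libraries held 11035641 (NT) and 11250099 (IL-4) expected counts, which are the RSEM estimates of reads per gene. Levels of different genes are compared in FPKM, which scales fragments for transcript length and library depth, and differences between libraries are given as log2 ratios (IL-4 over NT) from counts scaled to the totals, with an exact 95% interval. The intervals cover counting error only, and as the reads carry no molecular identifiers they are not independent molecules. Genes were called on 3 conditions, a log2 ratio of 0.75 or more in either direction, an exact binomial p of 0.05 or less, and 0.5 or less after Benjamini-Hochberg (BH) adjustment. All 8 macrophage markers examined, among them Adgre1, Csf1r, Cd68 and Lyz2, were listed in both libraries with a summed 188650 (NT) and 195842 (IL-4) counts, most of them from Lyz2 and Cd68. Within that list Csf1r was called higher upon IL-4, with 6236 and 11896 counts, and Cd14 was called lower, with 1219 and 591. One label field gives bone marrow as the tissue, whereas another, and the study's methods, give peritoneal macrophages, which was followed here. Of genes of other bone marrow cells, the erythroid gene Hba-a1 had 44 (NT) and 35 (IL-4) counts. The neutrophil gene S100a8 had 35 and 21, whereas Car1 and Mpo were at 0 in both libraries. These counts cannot tell the source, since macrophages grown from marrow in the study were also adherent cells. Hepatocytes express Arg1 strongly, and the hepatocyte markers Alb, Otc and Cps1 were also at 0 in both.

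Across the 10 genes, 4 were called higher upon IL-4 (Arg1, Slc7a2, Sat1 and Arg2) and 0 were called lower. Beside this, 4.07% of all 15593 genes tested were called higher and 6.28% lower. All 10 genes were among the 9925 with at least 50 counts in 1 or both libraries. Genes with a few reads can hardly be called, and the share among genes of like abundance was not counted. At an exact binomial p of 0.05 or less but short of the ratio threshold, Slc7a1, Odc1 and Srm were higher and Sms was lower. That p covers counting error only, and the related gene P4hb also had it, with a log2 ratio of 0.17. The share of all genes with such a p was not counted. The intervals of Azin1 and Oat included 0. With a fold over 1.5 and 0.05 or less after BH adjustment as the conditions instead, 6 of the 10 genes were called higher, Slc7a1 and Srm being added, beside 4.84% of all genes called higher and 7.74% called lower. The median log2 ratio was 0.63 over the 10 genes and -0.03 over all genes tested. It was 0.001 over the 8463 genes with at least 200 reads. The ratios were very uneven, since Arg1 and Slc7a2 had ratios of 7.95 and 4.50 and the other 8 genes had ratios of at most 0.91. In bulk RNA of this kind, more cells with a transcript and more transcript per cell cannot be told apart.

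**Figure D1:**
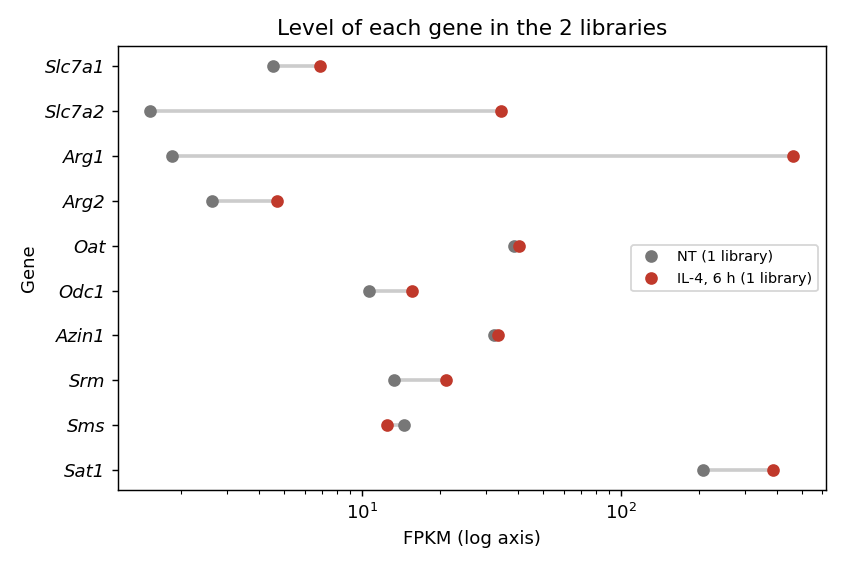
FPKM of each of the 10 genes (log axis) in the NT library (grey) and the IL-4 library (red), with 1 point per library and no replicates. Arg1 goes from 1.84 to 463 FPKM and Slc7a2 from 1.52 to 34.5 FPKM, whereas the points of Oat and Azin1 nearly coincide.

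Arg1 (gene 11846, chromosome 10, 24915207 to 24927470, GRCm38) encodes cytosolic arginase. NT cells gave 30 expected counts and IL-4-treated cells 7711, or 1.84 and 463 FPKM. By FPKM it ranked 9582 among 14842 listed genes in NT cells and 159 among 14717 upon IL-4, so a transcript in the lower part of the list became one of the most abundant. Scaled for depth, the count was 248-fold higher in the IL-4 library, with a 95% interval from 176-fold to 374-fold. The width of this interval came from the 30 counts in NT. Among 9925 genes with at least 50 counts in 1 or both libraries, the log2 ratio of Arg1 was number 4 from the top. None of the 31-base words of its transcript occurred in transcripts of another gene, so its reads could be assigned without division, and its counts were whole in both libraries.

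Arg2 (gene 11847, chromosome 12, 79130788 to 79156301) encodes the mitochondrial arginase that cleaves the same substrate. It was scarce in both libraries, with 41 counts in NT and 74 upon IL-4, or 2.64 and 4.68 FPKM. Its log2 ratio was 0.82, and the interval of 0.25 to 1.41 spanned the threshold (exact binomial p = 0.00375, BH-adjusted 0.0139). Arg2 was called at the main thresholds, but after subtraction of the median of genes of like length the ratio was 0.66, which did not pass. Of the 31-base words of its transcript, 23.6% also occurred in transcripts of Vti1b or Gm48780, so reads from that stretch may not all be from Arg2.

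Arg1 rose far above Arg2. Within the NT library the FPKM of Arg1 was 0.697 times that of Arg2, with a counting interval from 0.420 to 1.14 that included equality. Within the IL-4 library it was 99.0 times that of Arg2, with an interval from 78.7 to 126. Arg1 made up 41.1% of the summed arginase FPKM in NT cells and 99.0% upon IL-4. The sum itself went from 4.48 to 468 FPKM. A ratio taken within 1 library needs no scaling between libraries.

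Slc7a2 (gene 11988, chromosome 8, 40862341 to 40922070) encodes the cationic amino acid transporter CAT2, which imports arginine, lysine and ornithine. It had 130.97 counts in NT and 3038.45 upon IL-4, or 1.52 and 34.5 FPKM. By FPKM it was the lowest of the 10 genes in NT cells, although it did not differ from Arg1 there beyond counting error. Upon IL-4 it ranked 2090 among all listed genes. Its count was 22.7-fold higher in the IL-4 library, with an interval from 19.1-fold to 27.3-fold. Its log2 ratio of 4.50 was number 28 from the top among the 9925 genes with at least 50 counts. Slc7a2 was also among the 3 genes nearest to Arg1 when genes were placed by their log2 CPM (counts scaled to the library total) in both libraries. The others were Tmem26 (log2 ratio 6.12) and Chil3 (log2 ratio 6.27), which encodes a secreted chitinase-like protein, at distances of 1.44 and 2.02 log2 units against 2.50 for Slc7a2. This likeness is over 2 libraries only. CPM is also not scaled for transcript length, which in NT was 7720 bases for Slc7a2 and 1489 for Arg1. The genes nearest to Arg1 in FPKM were not determined.

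Slc7a1 (gene 11987, chromosome 5, 148327410 to 148399904) encodes CAT1, the widely expressed transporter of the same substrates. Its counts were 361.09 (NT) and 555.85 (IL-4), or 4.54 and 6.85 FPKM. The log2 ratio was 0.59 (interval 0.40 to 0.79), which lay above 0 but was short of the threshold, and Slc7a1 was not called. Both transporter transcripts are long, at 7119 bases for Slc7a1 and 7720 bases for Slc7a2 in the NT table. Genes of that length tended to be lower upon IL-4, with median log2 ratios of -0.39 among the 400 of closest length to Slc7a1 and -0.43 among those closest to Slc7a2. With that median subtracted the ratio of Slc7a1 was 0.99 and passed the threshold, and that of Slc7a2 was 4.93. In the NT library the FPKM of Slc7a2 was 0.335 times that of Slc7a1 (interval 0.272 to 0.410), and in the IL-4 library it was 5.04 times that of Slc7a1 (interval 4.60 to 5.52). Within this pair, the more abundant transcript was thus Slc7a1 in NT cells and Slc7a2 upon IL-4. Among other carriers, Slc7a7 had 9.21 FPKM in NT and 8.91 FPKM upon IL-4, and Slc7a6 had 4.55 and 5.17.

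**Figure D2:**
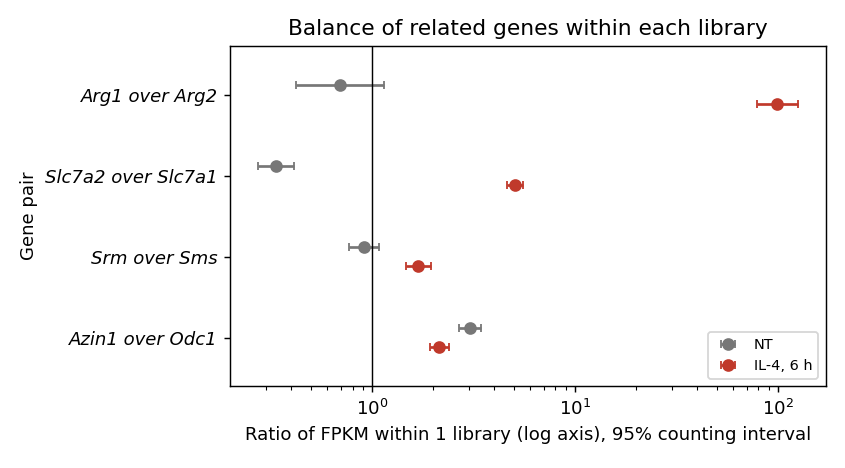
Ratio of the FPKM of gene pairs within the NT library (grey) and within the IL-4 library (red), log axis, with bars for the 95% counting interval and a line at equality. The intervals of the libraries do not overlap for any of the pairs, and the ratios of Arg1 over Arg2 and of Slc7a2 over Slc7a1 go from 0.697, with an interval that includes 1, and 0.335 in NT to 99.0 and 5.04 upon IL-4.

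Promoter sequence, from RefSeq on GRCm38.p6, was available for 5 of the 10 genes (Slc7a1, Oat, Odc1, Sat1 and Sms, in 7 windows). Arg1, Arg2, Slc7a2, Srm and Azin1 had no entry. Each window, of 250 bases before and 50 bases after a start in RefSeq, was searched on both strands for the Stat-type words TTCNNNNGAA (the spacing favoured by Stat6) and TTCNNNGAA, the E-box CACGTG and the TATA word TATAAA. Of 32851 windows of all genes, 6.95%, 8.30%, 7.15% and 13.6% held these words in that order. TTCNNNNGAA was in none of the 7 windows. TTCNNNGAA and TATAAA were found once each, at the inner of the annotated starts of Slc7a1, where they began 146 and 28 bases before the start. CACGTG was found once, 196 bases before the outer start of Sms. The windows of Oat, Odc1 and Sat1 held none of these words. A match of letters is a description and not a site, and a lack of match says only that these letters are not in the window. The 250 bases before each start are shown 5′ to 3′ on the strand of the gene for both starts of Slc7a1, the transporter whose call depended on length, and for the outer start of Sms and the start of Sat1, polyamine genes with ratios of opposite sign. Matches are in capitals.
Slc7a1, outer start, minus strand, chr5:148399905-148400154: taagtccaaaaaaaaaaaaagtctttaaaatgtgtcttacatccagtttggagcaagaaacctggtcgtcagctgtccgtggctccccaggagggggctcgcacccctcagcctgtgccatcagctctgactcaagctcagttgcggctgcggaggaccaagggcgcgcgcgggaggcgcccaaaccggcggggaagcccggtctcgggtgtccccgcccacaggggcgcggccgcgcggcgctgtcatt
Slc7a1, inner start, minus strand, chr5:148392816-148393065: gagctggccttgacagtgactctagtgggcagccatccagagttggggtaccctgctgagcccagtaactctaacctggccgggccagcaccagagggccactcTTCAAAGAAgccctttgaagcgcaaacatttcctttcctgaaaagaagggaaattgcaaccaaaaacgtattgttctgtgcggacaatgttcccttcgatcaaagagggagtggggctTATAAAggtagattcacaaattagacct
Sms, outer start, minus strand, chrX:157492288-157492537: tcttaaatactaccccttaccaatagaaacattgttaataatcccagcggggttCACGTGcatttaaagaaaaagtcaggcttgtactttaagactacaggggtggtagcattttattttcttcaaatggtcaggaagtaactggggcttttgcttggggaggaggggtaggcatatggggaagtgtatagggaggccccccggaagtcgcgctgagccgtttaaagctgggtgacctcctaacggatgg
Sat1, minus strand, chrX:155216450-155216699: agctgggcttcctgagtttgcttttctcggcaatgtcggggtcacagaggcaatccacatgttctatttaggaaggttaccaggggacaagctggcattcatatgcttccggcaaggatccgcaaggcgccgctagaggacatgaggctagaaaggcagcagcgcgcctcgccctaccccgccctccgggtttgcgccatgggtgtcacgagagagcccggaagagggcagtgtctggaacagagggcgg

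Downstream of arginase, Oat differed little between the libraries and Odc1 was moderately higher upon IL-4 without being called. Oat (gene 18242, chromosome 7, 132557475 to 132576398), the mitochondrial aminotransferase that moves ornithine to the proline and glutamate route, had 922 counts in NT and 977 upon IL-4, or 38.7 and 40.2 FPKM. Its log2 ratio was 0.06, with an interval from -0.08 to 0.19. Odc1 (gene 18263, chromosome 12, 17544808 to 17551502), ornithine decarboxylase and the rate-limiting enzyme of polyamine synthesis, had 300.05 and 449.24 counts, or 10.6 and 15.6 FPKM. Its log2 ratio was 0.55 with an interval from 0.34 to 0.77, which excluded 0 and just reached the threshold, and Odc1 was not called. Of the 31-base words of the Odc1 transcript, 52.0% also occurred in transcripts of other genes, led by Gm7993, Gm9115 and Gm17709, and its counts were not whole. The value of Odc1 is therefore uncertain. Azin1 (gene 54375, chromosome 15, 38487430 to 38519294), the antizyme inhibitor that spares ornithine decarboxylase from degradation, had 1758 and 1861 counts, or 32.2 and 33.5 FPKM. Its log2 ratio was 0.05, with an interval from -0.04 to 0.15. Azin1 exceeded Odc1 in FPKM by 3.03 times in the NT library (interval 2.68 to 3.43) and by 2.14 times in the IL-4 library (interval 1.93 to 2.38).

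Set beside these genes, the change in Arg1 altered the order of the pathway. In FPKM, Arg1 was 0.0475 times Oat without IL-4, with an interval from 0.0319 to 0.0683, and 11.5 times Oat with it, with an interval from 10.8 to 12.3. Arginase 1 thus went from the scarce to the abundant side of the enzyme that takes up its product, at the level of transcripts.

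Of the genes of polyamine synthesis and acetylation, Sat1 alone was called. Srm (gene 20810, chromosome 4, 148591513 to 148594619), spermidine synthase, had 193 counts in NT and 313 upon IL-4, or 13.3 and 21.1 FPKM. Its log2 ratio of 0.67 had an interval from 0.41 to 0.94 that spanned the threshold, and Srm was not called. Sms (gene 20603, chromosome X, 157443851 to 157492287), spermine synthase, was the only one of the 10 genes with a ratio under 0. It had 546.62 and 479.34 counts, or 14.6 and 12.5 FPKM. The log2 ratio was -0.22 (interval -0.40 to -0.04), and Sms was not called. Its BH-adjusted value was 0.0508 over all genes. Reads of Sms may be shared with Sms-ps, since 29.0% of its 31-base words occurred there or in other genes. The synthases were at like levels in NT cells, where the FPKM of Srm was 0.913 times that of Sms with an interval from 0.771 to 1.08. Upon IL-4 the ratio was 1.69, and its interval of 1.46 to 1.95 lay above that of NT.

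Sat1 (gene 20229, chromosome X, 155213126 to 155216449) encodes the acetyltransferase that marks spermidine and spermine for breakdown or export. It had 2656 counts in NT and 5083 upon IL-4, or 207 and 387 FPKM. It was the most abundant of the 10 genes in NT cells, at rank 324 of all listed genes, and remained at rank 192 upon IL-4. Its count was 1.88-fold higher upon IL-4, with an interval from 1.79-fold to 1.97-fold, and its log2 ratio of 0.91 was called. With 1181 bases, Sat1 is among the short transcripts that tended to be higher in the IL-4 library, and the 400 genes nearest in length had a median log2 ratio of 0.17. With that median subtracted the ratio of Sat1 was 0.73, just short of the threshold. Of its 31-base words, 17.8% also occurred in Gm46610 or Gm5552, although its counts were whole in both libraries.

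**Figure D3:**
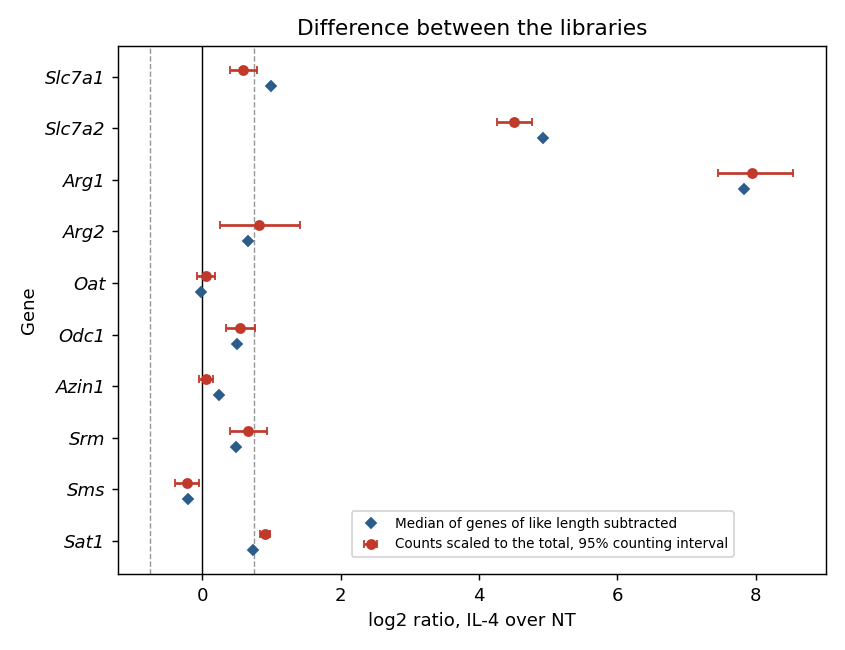
Log2 ratio (IL-4 over NT) for each gene, from counts scaled to the totals with the 95% counting interval (red) and after subtraction of the median of the 400 genes nearest in length (blue diamonds); dashed lines mark a ratio of 0.75 in either direction. Arg1 and Slc7a2 lie far to the right under both, Sat1 and Arg2 cross below the threshold in the second, and Slc7a1 crosses above it.

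In order of FPKM, the NT library ran from Sat1 through Oat, Azin1, Sms, Srm, Odc1, Slc7a1 and Arg2 to Arg1 and Slc7a2. Neighbours that did not differ beyond counting error were Sms and Srm, Arg2 and Arg1, and Arg1 and Slc7a2. The IL-4 library ran from Arg1 through Sat1, Oat, Slc7a2, Azin1, Srm, Odc1, Sms and Slc7a1 to Arg2, and there Slc7a2 and Azin1 did not differ beyond counting error. Arg1 exceeded Sat1 by 1.20 times upon IL-4, with an interval from 1.15 to 1.24.

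**Figure D4:**
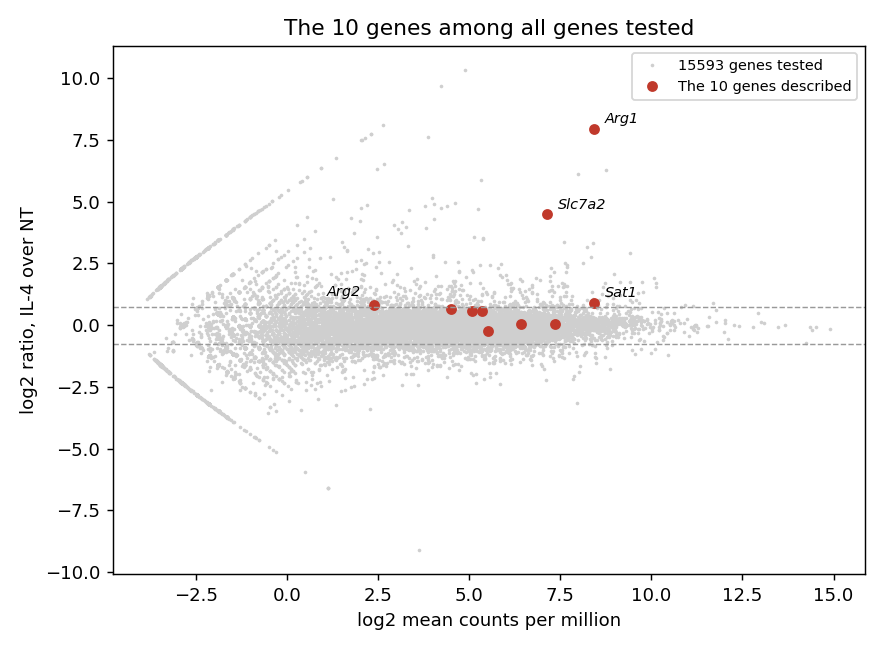
Log2 ratio (IL-4 over NT) against the log2 of the mean CPM (counts scaled to the library total) for all 15593 genes tested (grey) and the 10 genes (red), with dashed lines at a ratio of 0.75 in either direction. The 4 labelled genes were called, few genes of like abundance lie as high as Arg1 and Slc7a2, and the 6 unlabelled ones lie between the lines.

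Other carriers of arginine, ornithine and their exchange partners were examined as a list of 13 genes, of which 12 were listed in 1 or both libraries. A total of 2 were called higher and 0 lower (4.07% and 6.28% over all genes), and the median log2 ratio was 0.16. Slc7a5, the transporter LAT1 of large neutral amino acids, rose from 145 to 461 counts (log2 ratio 1.64, interval 1.37 to 1.92). The other was Slc7a4, with 4 and 16 counts. Slc3a2, the heavy chain that pairs with Slc7a5, Slc7a6, Slc7a7 and Slc7a8, was the most abundant of the list at 140.0 (NT) and 199 FPKM (IL-4). Its log2 ratio of 0.51 was not called.

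Among 16 genes of arginine synthesis, the urea cycle and other uses of arginine, 12 were listed, 2 were called higher and 0 lower (4.07% and 6.28% over all genes), with a median log2 ratio of 0.34. Gatm, which moves the amidino group of arginine to glycine in the first step of creatine synthesis, rose from 273 to 712 counts (log2 ratio 1.35, interval 1.15 to 1.56). Rars, the arginyl-tRNA synthetase, had 1099 and 1956 counts and a log2 ratio of 0.80, which was 0.72 and not called with the length trend subtracted. Nos2, the inducible nitric oxide synthase, had 1 count in NT and 2 upon IL-4, under the 3 counts taken as the floor, so no fold is given, and a count of 0 allows up to 0.272 CPM in NT and 0.267 CPM in IL-4. Ass1 and Asl, which rebuild arginine from citrulline, had log2 ratios of -0.20 and 0.11 and were not called. Otc, Cps1, Agmat and Nos1 were not listed in either library.

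In the list of 23 genes for polyamine regulation, decarboxylated S-adenosylmethionine, breakdown, transport and hypusine, 22 were listed, 1 was called higher and 3 were called lower (4.07% and 6.28% over all genes), with a median log2 ratio of 0.28. Of the 3 lower calls, 2 were lost with another scaling. Smox, spermine oxidase, fell from 158 to 81 counts (log2 ratio -0.99, interval -1.40 to -0.60). Atp13a2, the lysosomal polyamine exporter, fell from 2430.63 to 1450.24 counts (log2 ratio -0.77). That call was lost with TMM or median-of-ratios scaling and with the length trend subtracted. Slc18b1, a vesicular polyamine transporter, had 51.90 and 31.01 counts and a log2 ratio of -0.76 (interval -1.46 to -0.11). It too lost its call with TMM or median-of-ratios scaling. The call of Slc18b1 was also lost with 0.1 or 1 added to FPKM, with 2 counts added and with the thresholds of a fold over 1.5. The higher gene was Azin2, a further antizyme inhibitor, with 7 and 28 counts.

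Other polyamine genes named were not called. Amd1, which makes the aminopropyl donor for Srm and Sms, had 853 and 1058 counts and a log2 ratio of 0.28. Oaz1, the antizyme that targets ornithine decarboxylase for degradation, had 2408.87 and 2421.77 counts and a log2 ratio of -0.02. Eif5a, the translation factor whose hypusine is made from spermidine, was the most abundant gene of the list, at 309 FPKM in NT and 503 FPKM upon IL-4, and its log2 ratio of 0.70 fell short of the threshold of 0.75 but passed at a fold over 1.5.

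On the route from glutamate and ornithine to proline and collagen hydroxylation, 11 of 11 genes were listed, 1 was called higher and 1 lower (4.07% and 6.28% over all genes), near that background, with a median log2 ratio of 0.08. Aldh18a1, which makes the glutamate semialdehyde that also arises from ornithine through Oat, rose from 186 to 354 counts (log2 ratio 0.90, interval 0.64 to 1.16). Pycr1, which completes proline synthesis, had 4.72 and 8.51 counts, too few to measure a change. P4hb, the most abundant of the list, had 210 and 236 FPKM and was not called. The lower gene was P4ha2, a collagen prolyl hydroxylase subunit, with 44 and 23 counts.

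Of 9 genes of arginine sensing and the response to amino acid shortage, 4 were called higher and 1 lower (4.07% and 6.28% over all genes), with a median log2 ratio of 0.72. The 4 higher genes are known targets of the transcription factor Atf4, although a part of Atf4 in these differences was not tested. Asns, asparagine synthetase, rose from 270 to 646 counts (log2 ratio 1.23). Trib3, a pseudokinase, rose from 158 to 370 counts (log2 ratio 1.20). Ddit3, a stress transcription factor, rose from 436 to 984 counts (log2 ratio 1.15), and Chac1, which degrades glutathione, rose from 43 to 98 counts (log2 ratio 1.15). All 4 of these calls held with the length trend subtracted and were lost with an assumed coefficient of variation of 0.4. Atf4 itself had 2880 and 4833 counts and a log2 ratio of 0.72, under the threshold, and was called with TMM scaling or at a fold over 1.5. Castor2, a relative of the cytosolic arginine sensor Castor1, fell from 183.01 to 92.14 counts (log2 ratio -1.01).

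**Figure D5:**
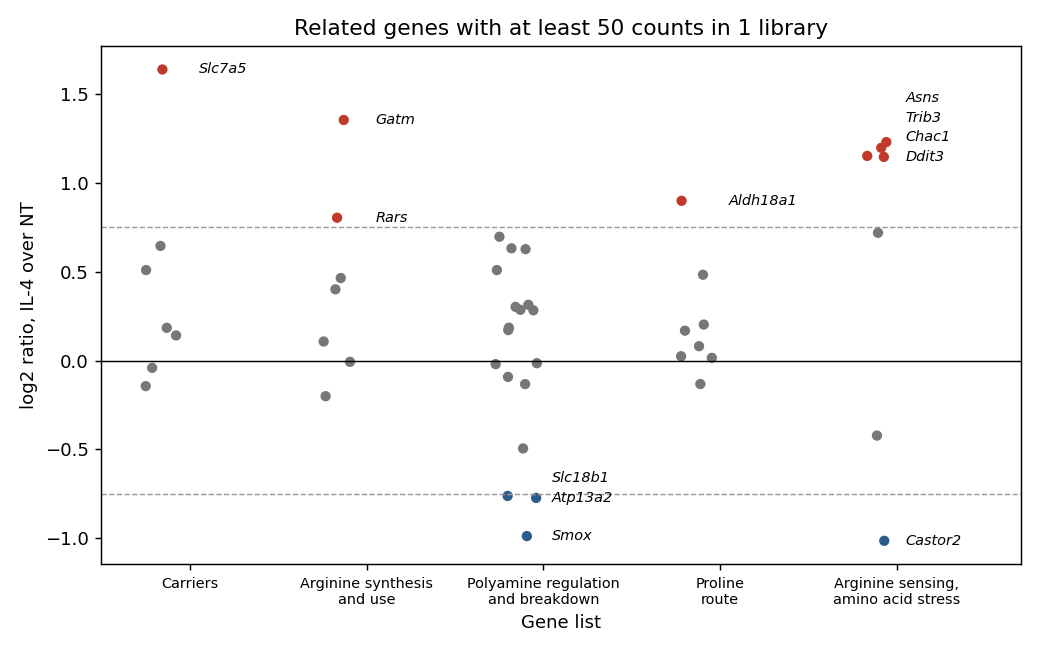
Log2 ratio (IL-4 over NT) for the genes of the 5 related lists with at least 50 counts in 1 or both libraries; red points were called higher, blue points called lower and grey points not called, and dashed lines mark 0.75 in either direction. Horizontal position within a list has no meaning, and Slc3a2 is in 2 lists; the points of called genes are named.

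Counts were low in both libraries for markers of other immune cell types, and higher for those of mesothelial cells and fibroblasts. The summed counts were 53 (NT) and 28 (IL-4) over 4 eosinophil markers with Epx and Ear6 at 0, 60 and 37 over 4 mast cell markers, and 36 and 21 over 6 neutrophil markers with S100a9, Ly6g, Mpo and Camp at 0. They were 76 and 64 over 3 B cell markers, 25.7 and 23.2 over 3 T cell markers, and 24.8 and 28.6 over 3 monocyte markers. Mesothelial and fibroblast markers, 5 in all and led by Col1a1 and Dcn, summed to 1115 and 936 counts. The 4 markers of resident peritoneal macrophages summed to 95 and 188 counts, but they differed among themselves. Selp (25 and 72) and Alox15 (4 and 29) were called higher, whereas Gata6 (54 and 77) and Timd4 (12 and 10) were not called. The part of these cells in the differences between the libraries was not tested.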

How the data were processed

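RNA from 2 libraries was sequenced at BGI (Illumina HiSeq). Per the labels and the study's methods, the authors used Bowtie for mapping to the GRCm38/mm10 build and RSEM for gene-level estimates (versions not given in the sources used here). The deposited expected counts, estimated reads per gene, are not scaled for depth, and reads matching several transcripts are divided among them. The authors also gave FPKM, scaled for length and depth, and a weighted gene length. The lowest FPKM listed was 0.01, and a gene absent from a table was set to 0. NCBI gene numbers were matched to symbols and coordinates through RefSeq for GRCm38.p6 (15587 of 15623).

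The members and gene lists were chosen with earlier results of these data known. Groups came from the sample titles. Log2 ratios used counts scaled to the totals with 0.5 count added. For the test, counts were rounded, and each of 15593 genes with at least 1 read was given an exact two-sided conditional binomial test (the smaller tail doubled) with Benjamini-Hochberg adjustment over all genes. The thresholds were those the study gives in its results, and its methods give a further set (fold over 1.5, adjusted value at most 0.05) that was run as an alternative. The test is between 2 libraries rather than conditions. Clopper-Pearson intervals were used. A floor of 3 counts was used (0.272 CPM in NT, 0.267 CPM in IL-4). Named genes were the 10 members, every related gene that was called with at least 50 counts, the most abundant uncalled gene of each list, 7 pathway genes fixed by name (Nos2, Ass1, Asl, Amd1, Oaz1, Smox and Pycr1) and the 3 genes nearest to Arg1. Slc7a4, Slc7a6, Slc7a7, Azin2 and P4ha2 were named after their values were seen. Shared 31-base words were counted against GENCODE M21 transcripts. Protein sequences were not used here.

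Alternatives were scaling by TMM (edgeR 4.0.16), by DESeq2 1.42.0 size factors (median of ratios) or by totals that omit the top 100 genes, FPKM with 0.1 or 1 added (with the calls of the count test), subtraction of a length trend (the median over the 400 genes of closest length, with 200 or more reads each), the edgeR exact test at a coefficient of variation set to 0.2 or 0.4, that further set of thresholds, a log2 ratio of at least 1 with an adjusted value at most 0.05, a minimum of 10 reads and 2 counts added. The procedure was tested on simulated libraries. Python 3.11.15, scipy 1.17.1 and R 4.3.3 were used.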

Additional observations from a re-analysis of the deposited data

How the results depend on the processing

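No paired analysis was possible because NT and IL-4 had 1 library apiece. All 12 alternatives were run. Over the 10 genes, 107 of 120 comparisons with an alternative kept their direction and side of the threshold, 9 lost the call, 3 gained it and 1 changed sign. Arg1 (7.35 to 7.99) and Slc7a2 (3.82 to 4.93) were called under all 12. Subtracting the length trend gave Arg2 0.66 and Sat1 0.73, no longer called, Slc7a1 0.99, now called, and Oat -0.020, of opposite sign. An assumed coefficient of variation of 0.2 or 0.4, or a log2 ratio of at least 1 with a BH-adjusted value at most 0.05, left 2 of the 10 genes called higher, without Arg2 (0.82) and Sat1 (0.91). FPKM with 1 added gave Arg2 0.64, not called, since the constant shrinks ratios of scarce genes. A fold over 1.5 with the same BH limit also called Slc7a1 (0.59) and Srm (0.67). No alternative called any of the 10 genes lower. Among related genes, Smox, Aldh18a1, Rars, Atp13a2 and Slc18b1 lost their calls with a coefficient of 0.2 or 0.4. The same genes lost them with a log2 ratio of at least 1. Smox, Castor2 and Slc18b1 lost theirs with FPKM plus 1, and Castor2, Slc7a5 and Gatm with a coefficient of 0.4. Slc18b1 was also not called with FPKM plus 0.1, 2 counts added or a fold over 1.5 with the same BH limit.

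Over all genes, FPKM with 1 added called 391 higher and 399 lower, a coefficient of 0.2 called 390 and 423, one of 0.4 called 65 and 8, and a log2 ratio of at least 1 called 408 and 476, against 635 and 979. The other scalings moved every ratio by at most 0.037. Depth limits Arg2, Slc7a4, Azin2, Pycr1 and Nos2, and the width of the interval of Arg1.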
